A study of Mus musculus with 10 samples.

Results

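Described here are 7 genes that mark neurons releasing the inhibitory transmitter GABA (gamma-aminobutyric acid): Gad1, Gad2 and Slc32a1, which make and package the transmitter, and Pvalb, Dlx1, Dlx6 and Lhx6, which mark interneurons or specify them. They were chosen by name, with earlier results of these data known. Their probe sets are those annotated to exactly 1 symbol, that of the gene. There were 95 such probe sets among 318760 with 1 symbol, and the 7 genes stood among 16367 with a gene level. The tissue was amygdala from mice aged 3 months, of 2 genotypes with 5 exon arrays each. The neuropsin-/- mice lack neuropsin, a secreted serine protease encoded by Klk8, and had been backcrossed to C57BL/6 for 12 generations. The wild-type mice were C57BL/6. Each genotype had 15 animals, and each array took the RNA of 3 of them; the arrays are taken here as distinct pools, so p-values measure the spread between pools. All mice were perfused with ice-cold PBS, the amygdala was dissected out of coronal vibratome slices, and the RNA was depleted of ribosomal RNA. The sources used here do not give the sex of the mice or the exons of Klk8 that were removed.

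GABA is made from glutamate by glutamate decarboxylase, which comes in 2 forms, encoded by Gad1 and Gad2. The Gad1 enzyme works throughout the cell and supplies most GABA, while the Gad2 enzyme is concentrated at nerve terminals. Slc32a1 encodes the vesicular transporter that loads GABA into synaptic vesicles. In the amygdala the lateral and basal nuclei are mostly excitatory with a minority of interneurons, while the central nucleus and the intercalated cell clusters consist mostly of GABA neurons. Pvalb encodes parvalbumin, a calcium buffer of fast-spiking interneurons. Dlx1 and Dlx6 are homeodomain transcription factors of the developing ventral forebrain, and Lhx6 is a LIM homeodomain factor of interneurons born in the medial ganglionic eminence, the group that includes the parvalbumin and somatostatin cells.

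All values are on the log2 scale, and every probe set (about 1 exon) has 1 value an array, and a gene level is the mean over the probe sets of a gene that lay above the median of all probe sets. Levels of different genes rest on different probes, so they are not set against each other here, and only differences are compared between genes. Klk8 itself, the targeted gene, was at 5.77, 5.40, 6.10, 6.04 and 5.84 on neuropsin-/- arrays 1 to 5, against 6.08, 6.21, 5.87, 6.28 and 6.64 on wild-type arrays 1 to 5. It did not pass the test (limma difference -0.39, SE 0.15, adjusted p = 0.693). The measurement was weak: Klk8 rested on 5 probe sets and was not far above the median of all probe sets, 4.94, in both genotypes. Its pooled SD within genotypes, 0.28, was above that of 93.8% of genes. Over genes, which are no replicates, Pearson correlations of the gene levels between arrays were 0.958 to 0.987. Wild-type arrays 4 and 5 stood apart on the first principal component, at 20.5 and 23.5 against -14.2 to 7.45 on the other 8 arrays. Neuropsin-/- arrays 4 and 5 lay on the same side of 0, at 7.45 and 3.14, and all others below 0. The differences of the 7 genes and the medians of all gene lists are also given without wild-type arrays 4 and 5. For the lists this setting was chosen after seeing the data. It keeps neuropsin-/- arrays 4 and 5 and so leaves the genotypes unequal on this component. Values without wild-type arrays 4 and 5 are therefore not corrected estimates. Genes that define the tissue were present, among them Slc17a7, the vesicular glutamate transporter of excitatory forebrain neurons, at 10.40 ± 0.08 in neuropsin-/- and 10.16 ± 0.16 in wild-type amygdala (SD, n = 5 each). Crh and Cyp19a1, markers of the central and medial amygdala, had too few probe sets above the median for a gene level.

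In neuropsin-/- amygdala 6 of the 7 genes had a lower mean than in wild type and Dlx1 had a higher one, with differences of -0.32 to 0.056 on the log2 scale. None passed the test (limma, Benjamini-Hochberg over all genes, adjusted p of 0.693 to 0.967), where 4 of 16367 genes passed (0.0244%). The median of the 7 differences was -0.12, beside -0.0019 over all genes, of which 50.7% had a lower mean in the neuropsin-/- group. At an unadjusted p under 0.05, Pvalb and Dlx6 stood out of the 7, beside 6.98% of all genes. In none of the 7 did the groups separate, which they did in 1.55% of all genes. In bulk tissue a lower level per cell and fewer such cells cannot be told apart.

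**Figure D1:**
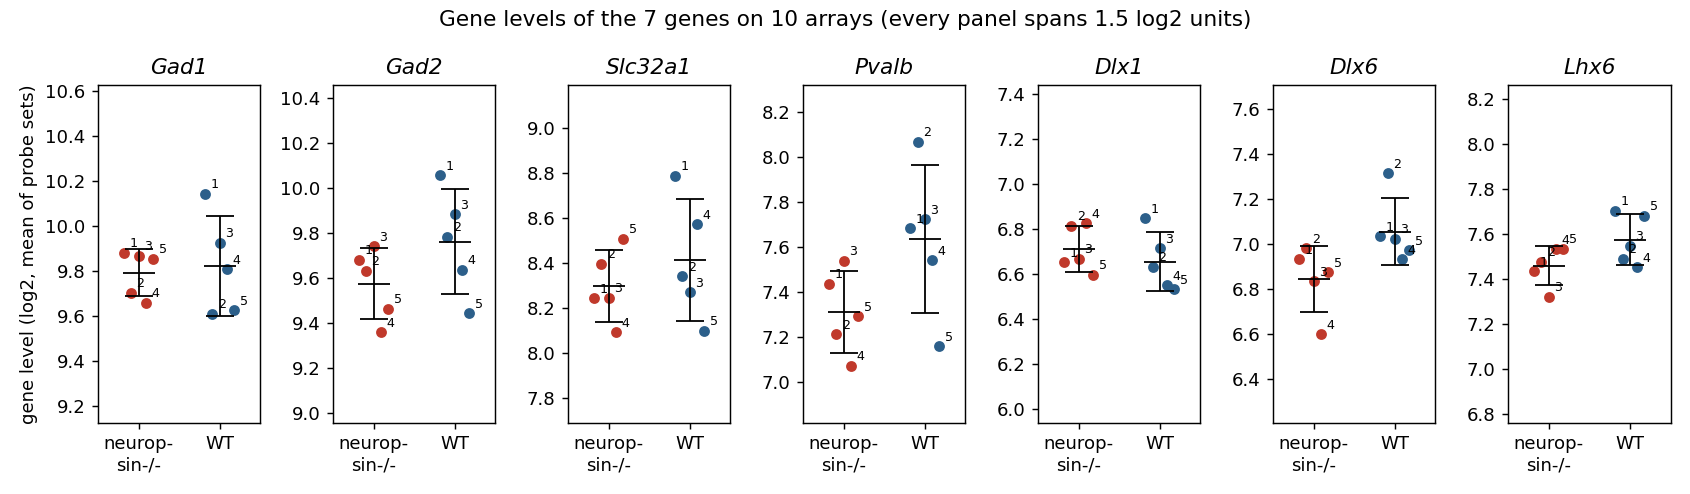
Gene level (log2, mean of the probe sets of a gene) of each of the 7 genes on every array, neuropsin-/- left and wild type right, with array numbers beside the points and black bars for the mean ± SD (n = 5). Every panel spans the same log2 range, and the groups overlap in all 7 genes, with Pvalb and Dlx6 the most shifted.

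Gad1 was the steadiest of the transmitter genes between the genotypes. Its level was 9.88, 9.70, 9.87, 9.66 and 9.85 on neuropsin-/- arrays 1 to 5, against 10.14, 9.61, 9.93, 9.81 and 9.63 on wild-type arrays 1 to 5. The wild-type arrays spanned the whole range of the neuropsin-/- arrays, with array 1 above all others and arrays 2 and 5 below all others. The difference was -0.029 (SE 0.10, 95% interval -0.25 to 0.19, limma adjusted p = 0.967), so that a neuropsin-/- level between 0.841 and 1.14 times that of wild type lay within the interval. The sign rested on single arrays, since Gad1 was at 0.051 without wild-type array 1 and at 0.0042 without neuropsin-/- array 4. It was at -0.10 when wild-type arrays 4 and 5 were both left out.

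All 25 Gad1 probe sets were above the median of all probe sets, and their differences straddled 0, with 15 lower and 10 higher in the neuropsin-/- group. They ran only from -0.25 at probe set 4504709 (9.87 ± 0.07 in neuropsin-/-, 10.12 ± 0.26 in wild type) to 0.20 at probe set 4882878 (9.41 ± 0.31 and 9.21 ± 0.38 in the same order). No Gad1 probe set had an unadjusted limma p under 0.05, which 5.97% of all 628415 tested probe sets had.

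Gad2 had 25 probe sets too, of which 23 passed the filter. Its level was 9.68, 9.63, 9.74, 9.36 and 9.46 on neuropsin-/- arrays 1 to 5, against 10.06, 9.78, 9.88, 9.64 and 9.44 on wild-type arrays 1 to 5. Wild-type arrays 1 to 3 lay above every neuropsin-/- array, while wild-type array 5 was below all of them except array 4. The difference was -0.19 (SE 0.11, 95% interval -0.43 to 0.06, limma adjusted p = 0.754), or 0.879 times wild type with an interval of 0.743 to 1.04. Gad2 was at -0.33 without wild-type arrays 4 and 5 (limma adjusted p = 0.276) and at -0.11 without wild-type array 1.

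The Gad2 probe sets leaned one way: 21 of the 23 had a lower mean in the neuropsin-/- group and 2 a higher one, beside 49.7% lower among all tested probe sets. Probe sets of a gene share its transcripts and arrays and are not independent. Their median difference was -0.13, and the largest shift was at the dim probe set 4801718, at 4.44, 5.20, 4.99, 4.41 and 5.51 on neuropsin-/- arrays 1 to 5 and 5.95, 6.12, 5.48, 5.69 and 4.99 on wild-type arrays 1 to 5. It differed by -0.74 (SE 0.26, limma adjusted p = 0.809). Probe set 5366981, named after its values were seen, was at 7.58 on neuropsin-/- array 5 and at 9.29 to 10.24 on the other 9 arrays, so its difference of -0.50 came with an SE of 0.40. The highest difference of Gad2 was 0.12, at probe set 4867189.

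The promoters of both enzyme genes are shown because Gad1 and Gad2 varied together over the arrays, as described with the correlations, while their genotype differences were -0.029 and -0.19, a contrast that was not tested. The windows run from 250 bases before to 50 after the start site in RefSeq (build GRCm38.p6), 5′ to 3′ on the strand of the gene, with CG pairs in capitals. Gad1 lies at chr2:70561879-70562178 and Gad2 at chr2:22622077-22622376, both on the plus strand.
Gad1: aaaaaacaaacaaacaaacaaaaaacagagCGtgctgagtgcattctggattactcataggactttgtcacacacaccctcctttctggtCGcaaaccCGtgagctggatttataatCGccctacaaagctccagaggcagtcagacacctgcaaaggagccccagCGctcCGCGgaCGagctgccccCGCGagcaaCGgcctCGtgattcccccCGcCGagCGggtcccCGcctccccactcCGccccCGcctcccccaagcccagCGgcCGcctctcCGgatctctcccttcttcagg
Gad2: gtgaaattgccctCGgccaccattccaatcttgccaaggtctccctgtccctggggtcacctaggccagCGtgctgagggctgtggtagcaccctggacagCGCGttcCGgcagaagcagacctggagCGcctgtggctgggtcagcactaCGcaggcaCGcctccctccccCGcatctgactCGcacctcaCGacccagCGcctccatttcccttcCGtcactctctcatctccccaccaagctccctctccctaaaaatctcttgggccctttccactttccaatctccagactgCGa
Both windows are rich in G and C (60.0% in Gad1 and 61.3% in Gad2, against a median of 52.7% over 32851 promoters), with 21 and 14 CG pairs. The letters TATAAA, searched on both strands, were found in the Gad1 window and not in that of Gad2, and 13.6% of all promoters hold them. Neither window holds TAATTA, a homeodomain core (5.29% of all promoters), or TGACGTCA, the cyclic AMP response element (1.79%). A match describes the letters only.

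Slc32a1, the vesicular transporter, was at 8.24, 8.40, 8.25, 8.09 and 8.51 on neuropsin-/- arrays 1 to 5, against 8.79, 8.34, 8.27, 8.57 and 8.10 on wild-type arrays 1 to 5. Wild-type arrays 1 and 4 were the highest, and the lowest array of each group was at about the same level. The difference was -0.12 (SE 0.12, 95% interval -0.38 to 0.15, limma adjusted p = 0.867), and it was -0.022 without wild-type array 1. With wild-type array 5 left out it was -0.19, and with both arrays 4 and 5 left out -0.17. All 9 probe sets passed the filter and 8 had a lower mean in the neuropsin-/- group, from -0.36 at probe set 4714201 to 0.07 at probe set 4608374. None had an unadjusted p under 0.05.

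Pvalb, parvalbumin, had the largest difference of the 7 genes. Its level was 7.44, 7.21, 7.54, 7.07 and 7.29 on neuropsin-/- arrays 1 to 5, against 7.68, 8.07, 7.73, 7.54 and 7.16 on wild-type arrays 1 to 5. Wild-type arrays 1 to 4 lay above every neuropsin-/- array, array 4 barely, and wild-type array 5 fell among the lowest. The difference was -0.32 (SE 0.14, 95% interval -0.63 to -0.02), or 0.799 times wild type, with a limma adjusted p of 0.693. Pvalb was at -0.51 without wild-type arrays 4 and 5 (limma adjusted p = 0.190) and at -0.22 without wild-type array 2. It was also a variable gene, with a pooled SD within genotypes of 0.27, above that of 92.0% of genes (median 0.15).

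The 7 Pvalb probe sets above the filter, all named here after their values were seen, had unlike profiles. Probe sets 5268870, 4960214, 5415597 and 5474616 were high on wild-type arrays 1 and 2 and lowest within wild type on array 5: 4960214 was at 7.91, 7.40, 7.82, 7.65 and 7.53 on neuropsin-/- arrays 1 to 5 and at 8.82, 8.91, 8.15, 7.96 and 7.29 on wild-type arrays 1 to 5. Probe set 4986637 had the largest shift, -0.68 (SE 0.24, limma adjusted p = 0.810), at 5.81 ± 0.45 in neuropsin-/- and 6.49 ± 0.40 in wild type. Probe set 4466364 ran the other way, at 7.88 ± 0.07 (SD, n = 5) on the neuropsin-/- arrays against 5.94, 7.54, 7.71, 7.88 and 8.14 on wild-type arrays 1 to 5, a difference of 0.44 (SE 0.33). In all, 6 of the 7 had a lower mean in the neuropsin-/- group. With the median over the probe sets in place of the mean, Pvalb differed by 0.020 (SE 0.10), since the middle value then came from probe set 5145944 on 5 of the 10 arrays and from 4960214, 5415597 or 4466364 on the others. The median of the 7 single probe set differences was -0.43. Among the settings run, the sign of the Pvalb difference thus turned only where the median was taken over levels, array by array.

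**Figure D2:**
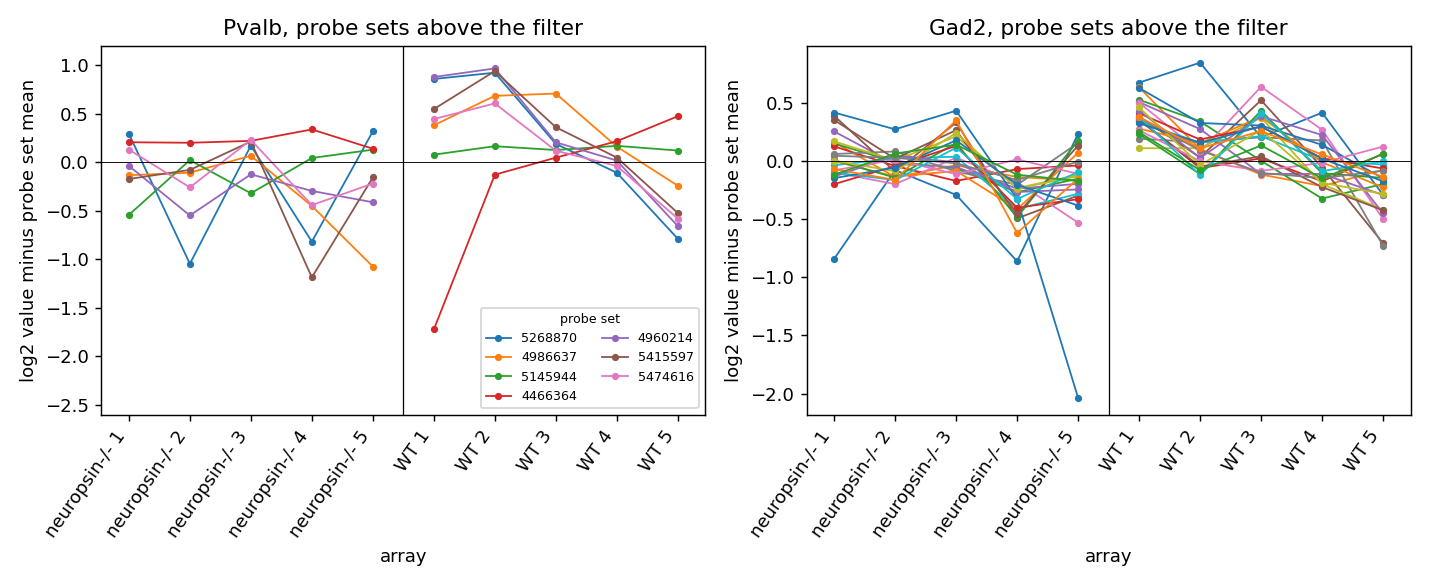
Values of the single probe sets of Pvalb (left) and Gad2 (right) that lay above the filter, as log2 value minus the mean of the probe set over the 10 arrays, neuropsin-/- arrays left of the black line and wild-type arrays right. Lines join the values of 1 probe set and carry no order. Most Gad2 probe sets move as a band, apart from 5366981 on neuropsin-/- array 5, while Pvalb probe set 4466364 departs from the others on wild-type array 1.

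Pvalb has 2 start sites in RefSeq, and the upstream window is shown because it differs from those of the decarboxylase genes in its CG pairs, which are again in capitals. It lies at chr15:78206351-78206650 on the minus strand (GRCm38.p6) and is given 5′ to 3′ on the strand of the gene.
Pvalb: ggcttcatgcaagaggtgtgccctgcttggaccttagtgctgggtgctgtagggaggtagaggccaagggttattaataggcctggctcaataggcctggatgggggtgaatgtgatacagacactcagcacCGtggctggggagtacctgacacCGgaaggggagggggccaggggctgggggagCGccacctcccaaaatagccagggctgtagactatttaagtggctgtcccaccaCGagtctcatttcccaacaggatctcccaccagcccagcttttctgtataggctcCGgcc
It holds 5 CG pairs and 58.3% G and C, while the window of the other start, at chr15:78204188-78204487, holds 25 CG pairs and 67.7%. None of the 3 motifs named for the decarboxylase genes is in either Pvalb window.

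Among the transcription factor genes, Dlx6 had the lowest unadjusted p. It was at 6.93, 6.98, 6.83, 6.60 and 6.87 on neuropsin-/- arrays 1 to 5, against 7.03, 7.31, 7.02, 6.93 and 6.97 on wild-type arrays 1 to 5. Only neuropsin-/- array 2 reached into the wild-type range. The difference was -0.21 (SE 0.09, 95% interval -0.41 to -0.01, limma adjusted p = 0.701). Dlx6 was at -0.28 without wild-type arrays 4 and 5 and at -0.15 without wild-type array 2. The gene rests on 5 probe sets, and all 5 had a lower mean in the neuropsin-/- group, by -0.12 at the least (probe set 5483552). With the median over the probe sets in place of the mean, Dlx6 differed by -0.16 with a wider SE of 0.20 (limma adjusted p = 0.941). Of the 92 tested probe sets of the 7 genes, probe set 5026398 of Dlx6 was the only one whose groups did not overlap (1.10% of all tested probe sets do not). It was at 6.88, 6.85, 6.27, 6.68 and 6.66 on neuropsin-/- arrays 1 to 5, against 7.40, 7.22, 6.90, 6.99 and 6.88 on wild-type arrays 1 to 5. The gap between the closest arrays was narrow, and the difference was -0.41 (SE 0.17, limma adjusted p = 0.828).

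Dlx6 lies beside Dlx5 and overlaps the long noncoding RNA gene Dlx6os1. Dlx5 differed by -0.13 (SE 0.11). Dlx6os1, named after its annotation was seen, was at 7.92 ± 0.10 in neuropsin-/- and 7.79 ± 0.15 in wild type (SD, n = 5 each), a difference of 0.14 (SE 0.09, limma adjusted p = 0.767), of the opposite sign to Dlx6. Whether probe sets of either gene also pick up the other was not tested.

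Dlx1 was the only gene of the 7 with a higher mean in neuropsin-/- amygdala. It was at 6.65, 6.81, 6.67, 6.82 and 6.60 on neuropsin-/- arrays 1 to 5, against 6.85, 6.63, 6.71, 6.55 and 6.53 on wild-type arrays 1 to 5. The groups lay on top of each other, with the highest array of all in wild type. The difference of 0.056 (SE 0.082, 95% interval -0.12 to 0.23, limma adjusted p = 0.908) moved to between 0.025 (wild-type array 5 left out) and 0.10 (wild-type array 1 left out) over single arrays. Its dim probe set 5047292 was at 6.35, 5.73, 5.86, 5.95 and 5.52 on neuropsin-/- arrays 1 to 5, against 5.78, 5.55, 5.80, 4.01 and 4.33 on wild-type arrays 1 to 5. Wild-type arrays 4 and 5 alone were low there, and the probe set differed by 0.79 (SE 0.34, limma adjusted p = 0.833). Dlx1 was at -0.020 without those arrays and at -0.064 with the stricter intensity filter, which drops that probe set and 2 others of Dlx1. Of its 9 probe sets 5 had a lower and 4 a higher mean in the neuropsin-/- group, the lowest being -0.27 at probe set 4477051. Dlx2, its neighbour and partner, differed by -0.06 (SE 0.09).

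Lhx6 was at 7.43, 7.48, 7.32, 7.53 and 7.53 on neuropsin-/- arrays 1 to 5, against 7.70, 7.49, 7.55, 7.45 and 7.68 on wild-type arrays 1 to 5. Wild-type arrays 1, 3 and 5 lay above every neuropsin-/- array. The difference was -0.11 (SE 0.08, 95% interval -0.28 to 0.05, limma adjusted p = 0.788), and its pooled SD of 0.10 was below that of most genes. Its 14 probe sets differed by -0.40 (5539979) to 0.34 (4558410), 10 lower and 4 higher, with no unadjusted p under 0.05. Leaving out any 1 array kept Lhx6 between -0.15 and -0.08, and without wild-type arrays 4 and 5 it was at -0.12.

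**Figure D3:**
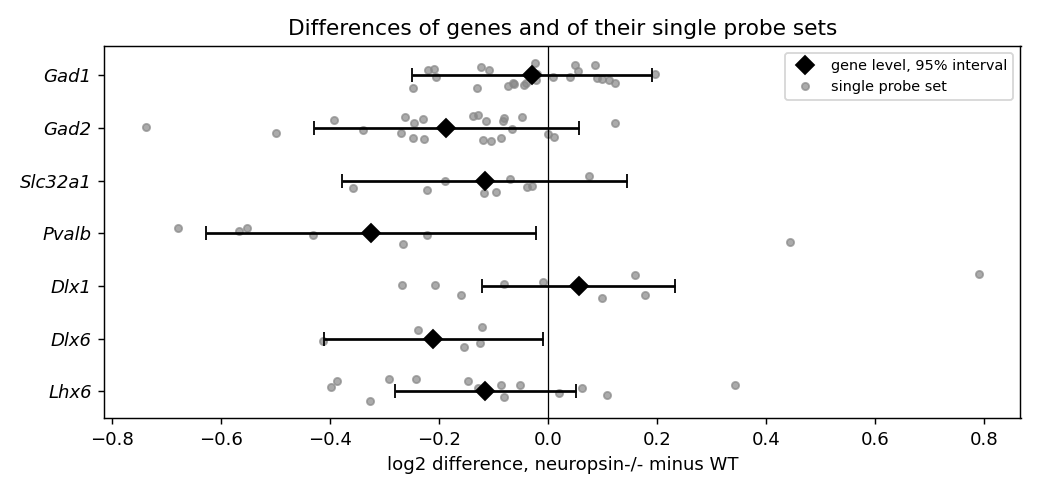
Log2 differences, neuropsin-/- minus wild type, of the 7 genes (black diamonds, with limma 95% intervals) and of their 92 probe sets above the filter (grey points, spread vertically at random). The Gad1 probe sets lie around 0, nearly all Gad2 probe sets lie below 0, and single probe sets of Pvalb and Dlx1 lie far to the right of the others of their gene.

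Over all 92 tested probe sets of the 7 genes, 70 had a lower and 22 a higher mean in the neuropsin-/- group. None passed the limma test (smallest adjusted p 0.809), where 15 of 628415 probe sets passed (0.00239%). An unadjusted p under 0.05 was found for 4 of the 92, which is 4.35% beside 5.97% of all probe sets. The single probe sets thus held no more small p-values than probe sets in general. The other 3 of the 95 probe sets, 2 of Gad2 and 1 of Pvalb, were below the filter, and they differed by -0.13 to -0.08.

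Some arrays were high or low in several of the 7 genes at once, in both genotypes. Wild-type array 1 was above the mean of the 10 arrays in all 7 genes and was the highest array for 5 of them. Neuropsin-/- array 4 was the lowest array for Gad2, Slc32a1, Pvalb and Dlx6. As the mean of the 7 centred levels, the neuropsin-/- arrays lay at -0.19 (array 4) and at -0.05 to -0.03 (the other 4), while the wild-type arrays ran from -0.13 on array 5 to 0.26 on array 1. The wild-type group was thus the wider, and its array 5 lay with the neuropsin-/- arrays.

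**Figure D4:**
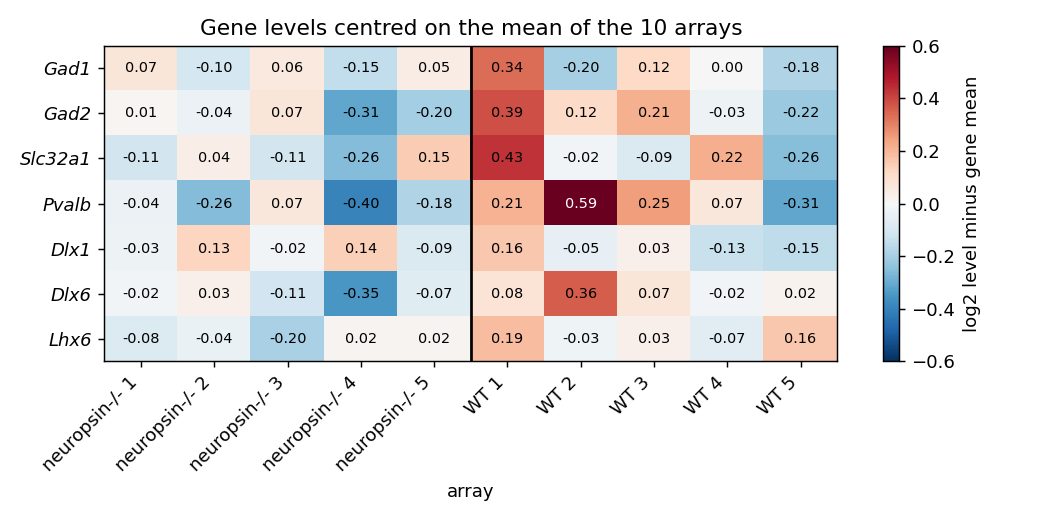
Level of each gene on each array as log2 value minus the mean of the gene over the 10 arrays, neuropsin-/- arrays left of the black line and wild-type arrays right. Red is above and blue below the mean. Wild-type array 1 is red in all 7 rows, and neuropsin-/- array 4 is the lowest array in 4 of them.

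Pearson correlations over the 10 arrays, with the genotype means subtracted and given as a description, put Gad1 with Gad2 (r = 0.74) and Slc32a1 (0.66), and Pvalb with Gad2 (0.70) and Dlx6 (0.67). Lhx6 went against Pvalb (-0.59), and Dlx1 with Dlx6 was at -0.07. All points share the arrays, and wild-type array 1 weighs on several of the pairs. Probe sets of the same gene followed each other in Gad1 and Gad2 (median r between probe sets 0.55 and 0.54), less in Slc32a1 (0.29), and hardly in Pvalb (0.09), Dlx1 (0.05), Lhx6 (0.01) and Dlx6 (-0.10). In the last 4 genes single pairs ran from clearly negative to clearly positive, up to 0.92 in Pvalb and down to -0.93 in Lhx6.

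The genes outside the 7 whose genotype-centred level was most like the mean of the 7 were Hexa (r = 0.98), a lysosomal hexosaminidase subunit, Scrn1 (0.98), Fam120c (0.97), Tspan2 (0.97), a tetraspanin of oligodendrocytes, and Klc2 (0.97), a kinesin light chain. Of 16360 genes compared over 10 arrays, 176 had an r above 0.9 to this mean. Most like Gad1 alone were Aldh9a1 (0.98), an aldehyde dehydrogenase that can form GABA from gamma-aminobutyraldehyde, Adarb1 (0.98), an RNA-editing adenosine deaminase, Sem1 (0.97), Cldnd1 (0.96) and Unc13c (0.96), a synaptic vesicle priming protein. Their genotype differences ran from -0.17 (Unc13c) to 0.05 (Hexa), and none passed.

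Other genes of GABA handling mostly showed small differences of the same sign. Of 10 measured genes of GABA uptake, breakdown and glutamate supply, 8 had a lower mean in the neuropsin-/- group, none passed, and the median difference was -0.09. With wild-type arrays 4 and 5 left out, 9 of the 10 were lower and the median was -0.17. The smallest p-values were those of Slc38a3, a glutamine transporter, at 8.47 ± 0.16 in neuropsin-/- and 8.73 ± 0.17 in wild type (difference -0.26, SE 0.10, limma adjusted p = 0.693), Slc6a13, a GABA transporter of vessels and meninges, at -0.19 (SE 0.10), and Slc1a1, a neuronal glutamate transporter, at 0.15 (SE 0.10). Abat, which breaks GABA down, differed by -0.09 (SE 0.09) and Aldh5a1, the next enzyme, by -0.11 (SE 0.10).

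Further markers of interneuron classes, the class of Pvalb included, had differences of both signs. Of 22 measured, 10 had a lower and 12 a higher mean in the neuropsin-/- group, none passed, and the median was 0.01. Cck, cholecystokinin, which excitatory neurons also express, was at 9.40 ± 0.10 in neuropsin-/- and 9.19 ± 0.08 in wild type (difference 0.21, SE 0.07, limma adjusted p = 0.693). Chodl, a marker of long-range somatostatin cells, differed by -0.26 (SE 0.12) and Calb1, calbindin, by 0.22 (SE 0.12). The Chodl level was low, at 5.63 ± 0.21 in neuropsin-/- and 5.89 ± 0.24 in wild type, not far above the filter of 4.94. The peptide genes Sst, Vip and Npy differed by -0.13 (SE 0.08), 0.16 (SE 0.10) and 0.19 (SE 0.14). Sst is also counted among the central and medial amygdala markers below. Without wild-type arrays 4 and 5, 16 of the 22 were lower and the median was -0.060.

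Of the 18 other transcription factor genes of GABA neurons analysed here, 15 had a lower mean in the neuropsin-/- group, none passed, and the median was -0.09. Zfhx3 differed by -0.23 (SE 0.09, limma adjusted p = 0.693), Maf, a factor of somatostatin and parvalbumin cells, by -0.23 (SE 0.11), and Etv1, also a marker of deep cortical neurons, by 0.24 (SE 0.11). The count of lower means was the same without wild-type arrays 4 and 5 (median -0.09). It includes dim genes such as Lhx5 (5.62 in neuropsin-/- and 5.72 in wild type) and Sp8 (5.73 and 5.90).

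Markers of other cells and regions in the slice moved over the arrays beside these genes, and their part in the differences was not tested. Striatum and intercalated cell markers, themselves GABA neuron genes, were lower in 15 of 17 (median -0.17), and their list mean, centred over the arrays, lay at -0.43 to 0.07 in neuropsin-/- and -0.10 to 0.21 in wild type, with neuropsin-/- array 4 the lowest as it was for Gad2, Slc32a1, Pvalb and Dlx6. Rasd2 differed by -0.23 (SE 0.08), Isl1 by -0.35 (SE 0.15) and the enkephalin gene Penk by -0.32 (SE 0.15). The Isl1 level was low, at 5.96 ± 0.32 in neuropsin-/- and 6.31 ± 0.27 in wild type. Central and medial amygdala markers were lower in 10 of 12 (median -0.12, list mean -0.11 to -0.02 in neuropsin-/- and -0.05 to 0.16 in wild type), with Dlk1 at -0.25, Fezf1 at -0.26 and Zic1 at -0.22 (SE 0.09 or less each). No gene of either list passed. Without wild-type arrays 4 and 5 the striatum and intercalated cell markers were lower in 16 of 17 (median -0.23) and the central and medial amygdala markers in 11 of 12 (median -0.22).

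Hypothalamus markers were lower in 11 of 12 (median -0.22), and their list mean was the only list mean here whose groups did not overlap, at -0.33 to -0.08 in neuropsin-/- and 0.04 to 0.32 in wild type. Pmch, the melanin-concentrating hormone gene, differed by -1.88 (SE 0.39, limma adjusted p = 0.270), Oxt, oxytocin, by -0.63 (SE 0.16) and Sim1 by -0.49 (SE 0.16). The list was chosen with earlier results of these data known, so the separation of its mean is not independent of them. Pmch lay far beyond the list median and weighs on the list mean, and whether the groups separate without it was not tested. Hypothalamic neurons include many GABA neurons. Thalamus markers were lower in 5 of 9 (median -0.12, list mean -0.14 to 0.05 in neuropsin-/- and -0.11 to 0.15 in wild type). Lef1 differed by -0.14 (SE 0.07), Gbx2 by -0.17 (SE 0.09) and Prkcd by -0.16 (SE 0.11). Prkcd is also counted among the central and medial amygdala markers. Without wild-type arrays 4 and 5 the hypothalamus markers were lower in 10 of 12 (median -0.10) and the thalamus markers in 8 of 9 (median -0.14).

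With all 10 arrays, more excitatory and general neuron markers had a higher than a lower mean in the neuropsin-/- group, which for the general markers rested on wild-type arrays 4 and 5. Excitatory neuron markers were lower in 4 of 14 (median 0.08, list mean -0.02 to 0.08 in neuropsin-/- and -0.17 to 0.05 in wild type). Slc17a7 differed by 0.24 (SE 0.09) and Fezf2 by 0.30 (SE 0.13), and Etv1, given above, also belongs to this list. General neuron markers were lower in 1 of 10 (median 0.07, list mean -0.02 to 0.07 in neuropsin-/- and -0.20 to 0.10 in wild type), with Stmn2 at 0.11 (SE 0.07), Eno2 at 0.07 (SE 0.07) and Tubb3 at 0.11 (SE 0.11). Without wild-type arrays 4 and 5 the general neuron markers were lower in 5 of 10 (median 0.0030) and the excitatory neuron markers in 5 of 14 (median 0.039).

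Oligodendrocyte markers were lower in 11 of 11 (median -0.28), and their list mean was high on wild-type arrays 1 to 3, as was Pvalb, and low on neuropsin-/- array 4 and wild-type array 5, spanning -0.42 to 0.0020 in neuropsin-/- and -0.44 to 0.49 in wild type. Fa2h differed by -0.33 (SE 0.13), Cldn11 by -0.28 (SE 0.11) and Opalin by -0.40 (SE 0.16). Astrocyte markers were lower in 8 of 10 (median -0.03, list mean -0.06 to 0.03 in neuropsin-/- and -0.17 to 0.17 in wild type), with Slc1a3 at 0.16 (SE 0.09), Aldoc at -0.07 (SE 0.07) and S100b at -0.11 (SE 0.14). Microglia and vessel markers were lower in 10 of 10 (median -0.03, list mean -0.09 to 0.06 in neuropsin-/- and -0.19 to 0.26 in wild type), with Cx3cr1 at -0.14 (SE 0.09), P2ry12 at -0.09 (SE 0.12) and Kdr at -0.09 (SE 0.12). The defining markers Mbp, Gfap and Cx3cr1 all had a gene level. None of the genes of these lists passed. All these medians were lower without wild-type arrays 4 and 5, at -0.54 for the oligodendrocyte markers (lower in 11 of 11), -0.12 for the astrocyte markers (9 of 10) and -0.18 for the microglia and vessel markers (10 of 10).

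**Figure D5:**
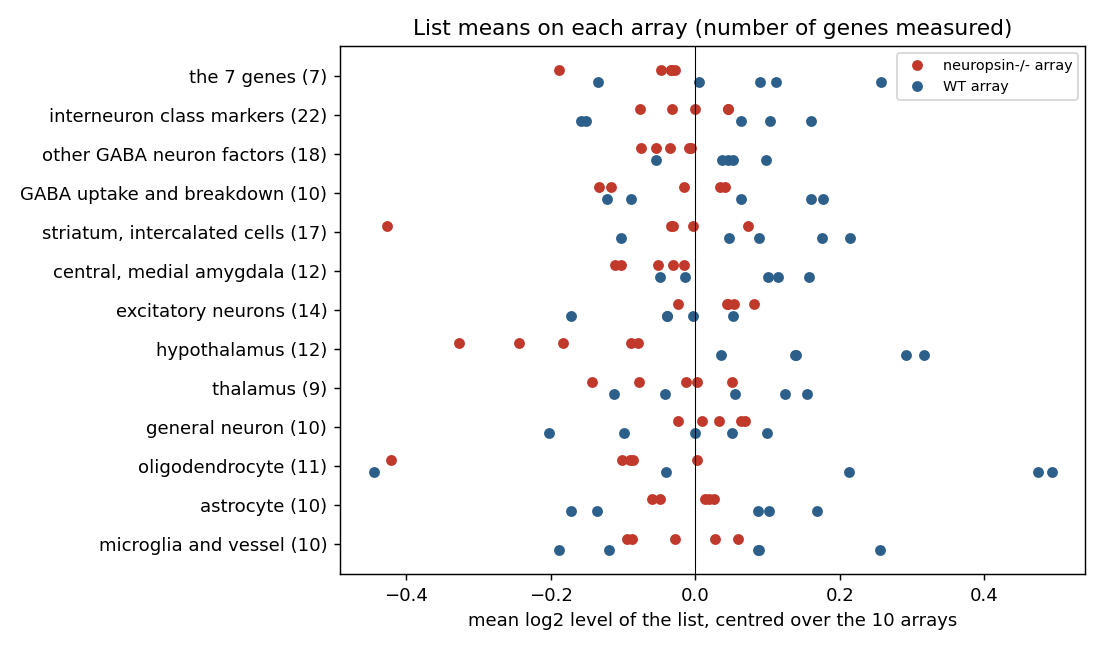
Mean log2 level of each gene list on each array, every gene centred on its mean over the 10 arrays, with neuropsin-/- arrays in red above wild-type arrays in blue and the number of measured genes in brackets. The 7 genes overlap between the genotypes, with wild-type array 5 among the neuropsin-/- arrays, and the hypothalamus markers do not overlap.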

How the data were processed

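Affymetrix mouse exon arrays of 5 neuropsin-/- and 5 wild-type amygdala RNA pools were used. The deposited log2 values had been made by the authors with RMA in Expression Console (background correction, quantile normalization, summary per probe set), per the labels and processing notes; the sources used here give no version or build. Names came from the platform annotation, symbols being updated through synonyms held by 1 gene (RefSeq, GRCm38.p6). Of 1256831 probe sets, 318760 had 1 symbol, 6684 several, and the rest were unnamed here.

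Probe sets with a mean above the median of all, 4.94, were tested (628415). Gene levels were means over at least 3 such probe sets (16367 genes). limma 3.58.1 in R 4.3.3 (lmFit, eBayes) compared neuropsin-/- minus wild type without covariates, two-sided, with Benjamini-Hochberg adjustment over all genes or probe sets and a threshold of 0.05, after the script was tested on simulated data. The number of arrays, 5 per genotype, limits precision. The 7 genes and all lists were chosen with earlier results of these data known. Named were the 7 genes, the 3 genes of smallest p per list and any that passed, the 5 genes most alike, and per gene its extreme and non-overlapping probe sets; other genes named in lists were chosen after their values were seen.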

Additional observations from a re-analysis of the deposited data

Results flagged for a closer look

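The 7 genes and the 20 probe sets named in the text were screened in each genotype, which made 54 groups of 5 arrays. In 4 of them the gap between an extreme array and the next, as a share of the range of the group, exceeded Dixon's critical value, which chance exceeds in about 1 in 20 groups. That rate holds for groups not picked by their values, and most of these probe sets were named for extreme values, so the count of 4 cannot be read against it. The Dlx6 gene level on wild-type array 2 was 7.31, above 6.93 to 7.03 on the other wild-type arrays. Pvalb probe set 4466364 on wild-type array 1 was at 5.94, below 7.54 to 8.14 on the other wild-type arrays. Pvalb probe set 5415597 on neuropsin-/- array 4 was at 6.85, below 7.86 to 8.25 on the other neuropsin-/- arrays. Dlx6 probe set 5483552 on neuropsin-/- array 4 was at 5.16, below 6.16 to 6.46 on the other neuropsin-/- arrays.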

How the results depend on the processing

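None of the 7 genes and none of their probe sets passed under any of the settings run. Gad2, Slc32a1, Dlx6 and Lhx6 kept a negative difference in all 20 other settings. Signs turned for Pvalb with the median over probe sets (0.020), for Dlx1 with the stricter filter (-0.064) and without wild-type arrays 4 and 5 (-0.020), and for Gad1 when single arrays were left out (range -0.083 to 0.051). Unadjusted p under 0.05 was found for Dlx6 in 11 of the 20 settings, for Pvalb in 9 and for Gad2 in 4. The settings reuse the same arrays, so these counts are not independent support. In the main fit 6.98% of all genes had such a limma p, and the share in the other settings was not counted. Without wild-type arrays 4 and 5 the median of the interneuron class markers was -0.060. The number of genes that passed, 4, ranged from 2 to 6 over the arrays left out singly, and genes with 1 or 2 probe sets, once allowed, lowered it to 2. The number of probe sets that passed, 15, was 3 after a repeated quantile normalization, 2 with no intensity filter, 66 above the 75th percentile, 2 to 9 over the arrays left out singly, 3 where both wild-type arrays 4 and 5 were dropped, and 102 under a variance prior that was trended and robust. The cause was not tested. Taking replicate numbers as a block, 0 probe sets and 3 genes passed, and no call on the 7 genes changed (limma adjusted p of 0.362 for Dlx6, 0.383 for Pvalb and 0.421 for Gad2). Of the 5 same-numbered pairs, the neuropsin-/- level was lower in 5 for Dlx6 and in 4 for Gad2, Pvalb and Lhx6. It was lower in 3 for Gad1 and Slc32a1 and in 2 for Dlx1. The share of all genes lower in all 5 pairs was not counted. The labels do not say what a number marks, and same-numbered arrays had residual correlations of 0.08 to 0.41, over 0.1 in 4 of 5 pairs where all were required, so pairing was not adopted. As a hint from the data, 4 of 5 neuropsin-/- and 3 of 5 wild-type arrays correlated best with their own number. Without scanner data, signal over background could not be given.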
